A study of Mus musculus with 10 samples.

Results

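The genes described here were 9 parts of the phosphoinositide 3-kinase (PI3K) lipid pathway, which were the class I catalytic subunits *Pik3ca*, *Pik3cb*, *Pik3cd* and *Pik3cg*, the class IA regulatory subunits *Pik3r1*, *Pik3r2* and *Pik3r3*, and the lipid phosphatases *Inpp4b* and *Inppl1*. They were taken by name from the 46517 gene rows of the count tables, and each had 1 row. Reads of these genes were summed per mouse over lymphatic endothelial cells (LECs) and over blood endothelial cells (BECs). A cell was called a LEC when *Prox1*, *Flt4* and *Mmrn1* together reached at least 300 CPM (read counts scaled to a common library size) and exceeded the sum of *Flt1*, *Emcn* and *Podxl*, and a BEC under the reverse rule.

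Class I PI3Ks are pairs of a catalytic and a regulatory subunit that add a phosphate to a membrane lipid after growth factor or G protein–coupled receptors are engaged, and the trisphosphate lipid they make recruits the kinase AKT. Lipid phosphatases such as those encoded by *Inppl1* and *Inpp4b* take phosphates off again. In lymphatic endothelium this pathway lies downstream of VEGFR3, the receptor for VEGF-C, and activating *Pik3ca* mutations occur in lymphatic and venous malformations.

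The study compared single dermal endothelial cells of the ear skin, sorted by CD31 and Podoplanin, from mice with and without an activated *Pik3ca*, using Smart-Seq2, which reads along the whole cDNA without molecular barcodes. All 5 mutant mice were *Pik3caH1047R;Cdh5-CreERT2*, Cre+, and had received 4-hydroxytamoxifen (4-OHT) on the ear at 3 wk of age. Control 1 was an untreated C57BL/6J mouse, and control 2 was of the mutant strain but Cre- and given 4-OHT. Every mouse was 5 wk old. The transgene is silent until Cre removes a stop cassette, sits in the *Rosa26* locus as a chicken cDNA, and Cre was driven by the pan-endothelial *Cdh5* promoter, so LECs and BECs of 1 mutant mouse could both recombine. The tables have no transgene row, so the *Pik3ca* values below are those of the endogenous gene row, and whether any transgene read was assigned to it was not tested.

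Of 3456 wells on 9 plates, 3248 cells were kept, with 1641 LECs (1283 from mutant and 358 from control mice) and 1490 BECs (1174 and 316). Summed LEC reads per mouse were 55616045–194353210 in mutant and 55904244–61229272 in control mice, and BEC sums were 38402388–99630824 and 41017823–46014548. Of markers that the rule did not use, 5 lymphatic genes (*Lyve1*, *Pdpn*, *Reln*, *Ccl21a* and *Tbx1*) summed to 3450–5168 CPM in LECs and 74.1–501 CPM in BECs. The 5 genes listed for BECs (*Cd34*, *Sox17*, *Vwf*, *Plvap* and *Sox18*) summed to 1503–1980 CPM in LECs and 5538–8766 CPM in BECs. Of these, *Sox18* did not separate the cell types, at 606–945 CPM in LECs and 573–1071 CPM in BECs. In LECs *Plvap* was at 468–833, *Cd34* at 29.4–624, *Vwf* at 3.66–65.9 and *Sox17* at 2.02–36.8 CPM, each below its range in BECs. In LECs the 3 blood genes of the rule still reached 480–689 CPM, and 813 mutant and 235 control LECs passed 300 CPM for both gates. This sum came mainly from *Emcn* (299–505 CPM) and *Podxl* (172–272 CPM). *Flt1* was at 1.64–17.4 CPM in LECs and 512–855 CPM in BECs. Whether LECs passing both gates held BEC material was not tested. Markers of some other cells were unequal between groups. Summed keratinocyte genes overlapped, at 12.9–695 CPM in mutant and 325–473 CPM in control BECs, and at 71.1–341 and 199–355 CPM in LECs. Summed fibroblast genes reached 12.8–43.4 CPM in mutant and 575–790 CPM in control BECs, and 15.8–106 and 193–382 CPM in LECs. Mural cell genes gave 35.0–207 and 328–696 CPM in BECs, and 38.4–69.0 and 120–139 CPM in LECs. Plates of mutants 1–4 carried numbers of a lower series than those of mutant 5 and both controls, so genotype and plate series could not be told apart for most mice.

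All 9 genes lay on autosomes of mouse genome GRCm38 (positions from GENCODE vM21). *Pik3ca* lay at chr3:32397671-32468486, *Pik3cb* at chr9:99036654-99140621, *Pik3cd* at chr4:149649168-149702571 and *Pik3cg* at chr12:32173473-32208659. The regulatory genes lay at chr13:101680563-101768217 (*Pik3r1*), chr8:70768176-70776713 (*Pik3r2*) and chr4:116221618-116303056 (*Pik3r3*), and the phosphatases at chr8:81342556-82127914 (*Inpp4b*) and chr7:101822632-101838229 (*Inppl1*). For 6 of the 9, no exon base of GENCODE vM21 was shared with another gene. These exons summed to more bases than the deposited lengths for *Pik3cg* (8426 and 6786), *Inpp4b* (13066 and 10176) and *Inppl1* (6399 and 4981). The overlaps given here are therefore those of GENCODE vM21 and may differ for the exons counted. Of *Inppl1* exon bases, 20.3% overlapped other genes on the opposite strand, mainly the antisense gene *Gm10602*, and since the strand setting of the counting is not given in the sources used here, reads of the pair could not be told apart. *Pik3r3* shared 24.3% of its exon bases with *Gm49337* on the same strand, which has no row in the tables, and *Pik3r2* shared 1.08%.

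Promoters are shown for the 3 of 9 genes whose LEC levels did not overlap between mutant and control mice, beside 25.5% of all genes. The windows of 300 bases run from upstream of the start into the first transcribed bases (RefSeq, GRCm38.p6). Capitals mark the GC box GGGCGG on either strand, the motif bound by Sp/KLF factors. *Pik3r1* is given with a distal start (chr13:101768168-101768467, minus strand) and a start inside the gene (chr13:101692581-101692880, minus strand), *Pik3r3* with its first listed start (chr4:116221166-116221465, plus strand), and *Inpp4b* with its single start (chr8:81342312-81342611, plus strand).
*Pik3r1* distal: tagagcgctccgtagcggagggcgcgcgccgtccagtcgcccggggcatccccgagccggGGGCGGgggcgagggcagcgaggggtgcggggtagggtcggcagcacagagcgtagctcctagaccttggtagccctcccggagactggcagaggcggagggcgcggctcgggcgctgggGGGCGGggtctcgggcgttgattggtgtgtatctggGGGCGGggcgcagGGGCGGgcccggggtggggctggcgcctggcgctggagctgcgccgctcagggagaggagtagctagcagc
*Pik3r1* inside the gene: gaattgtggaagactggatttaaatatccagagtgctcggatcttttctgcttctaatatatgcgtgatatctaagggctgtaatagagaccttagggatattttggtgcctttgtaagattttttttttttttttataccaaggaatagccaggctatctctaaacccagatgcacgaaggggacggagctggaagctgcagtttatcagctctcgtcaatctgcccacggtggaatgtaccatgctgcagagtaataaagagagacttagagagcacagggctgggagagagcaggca
*Pik3r3*: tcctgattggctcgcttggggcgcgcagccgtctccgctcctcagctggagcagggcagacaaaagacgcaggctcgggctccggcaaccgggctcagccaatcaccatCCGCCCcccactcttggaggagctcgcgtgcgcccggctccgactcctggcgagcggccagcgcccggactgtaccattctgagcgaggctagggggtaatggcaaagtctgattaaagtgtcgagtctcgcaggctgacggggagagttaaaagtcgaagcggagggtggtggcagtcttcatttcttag
*Inpp4b*: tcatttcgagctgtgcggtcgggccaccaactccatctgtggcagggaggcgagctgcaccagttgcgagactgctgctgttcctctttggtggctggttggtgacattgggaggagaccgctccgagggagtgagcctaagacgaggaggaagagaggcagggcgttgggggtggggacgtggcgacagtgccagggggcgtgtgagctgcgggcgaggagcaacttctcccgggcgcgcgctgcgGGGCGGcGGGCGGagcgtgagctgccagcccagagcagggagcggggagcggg
The distal *Pik3r1* promoter was 75.7% GC with 34 CG pairs and 4 GC boxes, whereas the one inside the gene was 43.7% GC with 6 CG pairs and no GC box. Those shown for *Pik3r3* and *Inpp4b* held 25 CG pairs each, with 1 and 2 GC boxes, and the other listed *Pik3r3* promoters 14 and 6 CG pairs, against a median of 7 CG pairs over 32851 mouse promoters. A GC box was found in 12 of 16 promoters listed for the 9 genes and in 35.7% of all promoters. The FOXO motif TGTTTAC was found in 1 of the 16 (a *Pik3cg* promoter) and in 3.65% of all, and the E box CACGTG in 0 of 16 and 7.15% of all. These matches describe the letters only, and the counts are per gene, so the *Pik3r1* starts could not be told apart in the expression data.

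Levels of different genes were compared per length, as RPKM (reads per kilobase of summed exons, scaled to the reads of the sum), with mean ± SD over 7 mice. In LECs the most abundant member was *Pik3r2*, a regulatory subunit, at 10.4 ± 2.8 RPKM. It was followed by *Pik3r3* (5.20 ± 1.4), *Pik3r1* (4.56 ± 1.71) and *Pik3ca* (3.42 ± 0.97). *Inppl1* (2.58 ± 1.20), *Inpp4b* (1.46 ± 0.63) and *Pik3cg* (1.08 ± 0.81) came next, and *Pik3cd* (0.66 ± 0.36) and *Pik3cb* (0.52 ± 0.44) were lowest. Of the steps in this order, the one below *Pik3r2* exceeded the SDs of both neighbours, and no other neighbours differed beyond their spread over all mice. The groups were not alike in this order. In mutant LECs the step from *Pik3r1* (5.42 ± 1.003) to *Pik3ca* (3.12 ± 0.83) exceeded the SDs as well, whereas in control LECs *Pik3ca* came next after *Pik3r2* (mean 4.18, n = 2) and *Pik3r1* came below *Pik3r3* and *Inppl1* (mean 2.39). Of the catalytic subunits, *Pik3ca* thus had the highest mean in LECs.

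In BECs the order began with *Pik3r3* at 19.2 ± 4.9, followed by *Inppl1* at 8.63 ± 1.21 and *Pik3r2* at 5.57 ± 0.86 RPKM. *Pik3r1* (3.98 ± 0.75) and *Pik3ca* (3.21 ± 1.34) came next and did not differ beyond their spread. *Pik3cb* (1.18 ± 0.42), *Pik3cd* (1.15 ± 1.97), *Pik3cg* (0.83 ± 0.68) and *Inpp4b* (0.70 ± 0.39) formed the lowest group, within which no step exceeded the SDs. The steps below *Pik3r3*, *Inppl1*, *Pik3r2* and *Pik3ca* did. The low place of *Pik3cd* came from the mutants, where it was lowest at 0.21 ± 0.17 RPKM, while its mean in control BECs was 3.51 RPKM (1.56 and 5.45), next to *Pik3r1* at 3.70. Giving every cell equal weight, in place of every read, left the order of the 9 genes over all mice as it was in LECs and as it was in BECs.

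The first comparison asked which pathway parts differed between mutant and control mice in each cell type (5 against 2 mice, edgeR quasi-likelihood F test on summed counts, adjusted over all genes tested). CPM in the following paragraphs are scaled by TMM within the cell type. In LECs, none of the 9 passed an adjusted p of 0.05 in edgeR, where 2.76% of 19758 genes did, while 3 of 9 had an unadjusted p under 0.05, beside 20.1% of all genes, and 3 of 9 passed in DESeq2, where 12.5% of all genes did. CPM of mutant and control mice did not overlap for 3 of 9, a share to be read against 25.5% of all genes. In BECs, none of 9 passed in edgeR (2.12% of 19315 genes), 5 of 9 had an unadjusted p under 0.05 (19.6% of all genes), 4 of 9 passed in DESeq2 (11.6% of all genes), and 5 of 9 did not overlap (25.1% of all genes). The median log2 fold change of the 9 was -0.38 in LECs and 0.15 in BECs, beside -0.01 and 0.01 over all genes tested.

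*Pik3ca*, the catalytic subunit most used downstream of receptor tyrosine kinases and the gene that the transgene copies, had lower CPM in BECs of all mutant mice than in either control. Its BEC values were 26.9, 18.9, 29.3, 21.4 and 17.7 CPM in mutants 1–5 and 40.3 and 48.2 CPM in controls 1 and 2. The log2 fold change was -0.95 (SE 0.26, 95% interval -1.56 to -0.35), with an adjusted p of 0.107 in edgeR and 0.0137 in DESeq2. In LECs the values were 29.6, 22.6, 42.0, 25.6 and 23.6 CPM in mutants and 31.1 and 42.7 CPM in controls. These overlapped, with a log2 fold change of -0.36 (SE 0.29, interval -1.03 to 0.30; adjusted p = 0.522). Of the mutants only mutant 3 lay above control 1 in LECs, and its plates were unlike (26.0 and 57.8 CPM before TMM scaling). When LECs passing both gates were left out, the LEC value was -1.12 (SE 0.37; adjusted p = 0.155). When cells with markers of other cell types were left out, the BEC value was -1.09 (adjusted p = 0.0674).

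*Pik3cd*, the catalytic subunit best known from leukocytes, showed the largest difference of the 9 in BECs, but on few reads. BEC sums held 1.27, 0.048, 0.52, 2.59 and 2.17 CPM in mutants and 33.4 and 9.42 CPM in controls, so that both controls were above every mutant. The log2 fold change was -4.01 (SE 1.05; adjusted p = 0.0914 in edgeR, 0.00216 in DESeq2). With 1 mouse left out it ranged from -4.65 (without control 2) to -2.82 (without control 1). In the controls the reads numbered 1570 and 401, came from 53 and 12 cells, and the 5 highest cells held 89.0% and 97.8% of them. Mutant sums rested on 2–219 reads in 2–10 cells. In LECs the values were 6.06, 4.65, 0.46, 2.47 and 3.26 CPM in mutants and 5.08 and 6.62 CPM in controls, which overlapped (log2 fold change -0.79, SE 0.79; adjusted p = 0.618).

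Immune markers (*Ptprc*, *Tyrobp*, *Lyz2*, *Cd68* and *Laptm5*) summed to 1.07–7.06 CPM in mutant and 2.19–2.89 CPM in control BECs, with 2 and 3 of the 5 under 1 CPM in all mice of the group. With the cells carrying fibroblast, mural, keratinocyte, immune or Schwann cell markers left out, the BEC value of *Pik3cd* was -4.07 (adjusted p = 0.0701).

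*Pik3cg*, the class IB subunit activated by G protein–coupled receptors, went the other way in BECs. Values were 12.5, 3.67, 12.4, 3.42 and 4.69 CPM in mutants and 1.42 and 1.97 CPM in controls, with no overlap. On the log2 scale the mutants were higher by 2.11 (SE 0.79), with an adjusted p of 0.196 in edgeR and 0.0306 in DESeq2. Control reads numbered 67 and 84, and over 95% of them came from 1 cell in each mouse (95.5% and 95.2%). In mutants the highest cell held 17.6, 40.8, 68.2, 99.1 and 28.3% of the reads, and the share of BECs with a *Pik3cg* read overlapped (0.575–7.10% in mutants and 1.26–1.91% in controls, exact p = 0.333). In LECs, values of 9.19, 14.2, 3.20, 3.32 and 3.28 CPM in mutants overlapped 2.89 and 14.4 CPM in controls (log2 fold change -0.38, SE 0.81; adjusted p = 0.834). Immune markers in LECs summed to 13.1–49.1 CPM in mutant and 6.71–21.4 CPM in control mice, and their part in the *Pik3cg* and *Pik3cd* values was not tested.

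*Pik3cb*, the remaining class IA catalytic subunit, did not separate the groups. BEC values were 10.8, 8.16, 7.21, 5.45 and 7.89 CPM in mutants and 6.02 and 13.8 CPM in controls (log2 fold change -0.33, interval -1.40 to 0.75). In LECs they ranged over 0.18–9.17 CPM in mutants, with 10 reads in the lowest sum, and were 2.82 and 6.71 CPM in controls (log2 fold change -0.55, interval -3.10 to 2.01). The intervals were wide, so differences of several-fold in either direction were not detectable in LECs at this depth.

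*Pik3r1*, which encodes the most widely used regulatory subunit and its shorter forms, was the member with the smallest adjusted p in LECs. Its LEC values were 64.5, 60.0, 45.3, 61.8 and 44.0 CPM in mutants 1–5 and 28.8 and 18.6 CPM in controls 1 and 2, so the lowest mutant lay above the highest control. Means were 55.1 ± 9.7 (SD, n = 5) and 23.7 ± 7.2 CPM (n = 2). The log2 fold change was 1.22 (SE 0.27, interval 0.60 to 1.84), with an adjusted p of 0.0552 in edgeR and 0.00044 in DESeq2. It passed in edgeR (log2 fold change 1.27; adjusted p = 0.0393) when cells with markers of other cell types were left out. With 1 mouse left out the log2 fold change ranged from 0.94 to 1.59, and leaving out any mutant gave no call in edgeR.

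Reads of *Pik3r1* were less concentrated in a few LECs in mutants than in controls. The 5 highest cells held 14.9–38.9% of them in mutants and 53.3% and 59.6% in controls. Both plates of mutant 3 (45.3 and 42.5 CPM before TMM scaling) and of mutant 5 (38.8 and 48.5) gave like values. In BECs the groups overlapped, with 54.4, 37.3, 42.7, 43.6 and 31.1 CPM in mutants and 32.1 and 40.3 CPM in controls (log2 fold change 0.21, SE 0.26, interval -0.38 to 0.79; adjusted p = 0.695). Within the higher plate series, mutant 5 minus the mean of both controls was 0.90 on the log2(CPM + 1) scale in LECs and -0.20 in BECs.

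*Pik3r3*, a regulatory subunit with a shorter amino-terminal part, had higher CPM in all mutants than in both controls in each cell type. LEC values were 31.5, 32.6, 27.5, 38.9 and 25.9 CPM in mutants and 15.2 and 21.8 CPM in controls, and the log2 fold change was 0.76 (SE 0.26, interval 0.15 to 1.36; adjusted p = 0.163 in edgeR, 0.0417 in DESeq2). Leaving out LECs that passed both gates gave 0.25 (adjusted p = 0.772). The plates of mutant 3 were unlike in LECs (35.9 and 16.2 CPM before TMM scaling), and those of mutant 5 gave 23.8 and 27.7 CPM. BEC values were 86.3, 101.1, 102.2, 125.8 and 144.4 CPM in mutants and 70.5 and 82.9 CPM in controls (log2 fold change 0.55, SE 0.23; adjusted p = 0.234), where mutant 1 lay close to control 2.

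*Pik3r2*, the regulatory subunit with the highest level in LECs, overlapped between genotypes. LEC values were 52.8, 38.9, 32.8, 45.2 and 60.1 CPM in mutants and 28.0 and 46.4 CPM in controls (log2 fold change 0.31, interval -0.38 to 0.99; adjusted p = 0.612). In BECs, 17.5–29.3 CPM in mutants enclosed 20.0 and 24.3 CPM in controls (log2 fold change 0.10, interval -0.54 to 0.74; adjusted p = 0.871).

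*Inpp4b*, a phosphatase that acts on the bisphosphate lipid formed from the PI3K product, lay below both controls in mutant LECs and above both in mutant BECs, without passing in edgeR in either. In LECs it was at 12.4, 12.8, 13.6, 11.9 and 6.77 CPM in mutants and at 22.1 and 24.1 CPM in controls, which did not overlap. The log2 fold change was -1.004 (SE 0.32, interval -1.73 to -0.28; adjusted p = 0.128 in edgeR, 0.0281 in DESeq2). With plate series as a block, which leaves mutant 5, the lowest of the mutants, as the 1 mutant set against the controls, it was -1.77 (adjusted p = 0.132). In BECs it was at 6.80, 6.18, 6.71, 10.6 and 13.7 CPM in mutants and at 2.36 and 3.64 CPM in controls, again without overlap. The log2 fold change there was 1.55 (SE 0.55), with an adjusted p of 0.177 in edgeR and 0.0236 in DESeq2. The control BEC sums held 111 and 155 reads, of which 1 cell gave 73.9% and 65.2%.

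*Inppl1*, also called SHIP2, removes a phosphate from the trisphosphate lipid. It overlapped between genotypes, with 9.13, 11.2, 13.3, 2.64 and 18.9 CPM in mutant LECs and 15.5 and 18.9 CPM in control LECs (log2 fold change -0.64, interval -2.002 to 0.72; adjusted p = 0.587). Its BEC values were 40.5–51.8 CPM in mutants and 32.0 and 47.8 CPM in controls (log2 fold change 0.15, interval -0.36 to 0.66; adjusted p = 0.749).

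**Figure D1:**
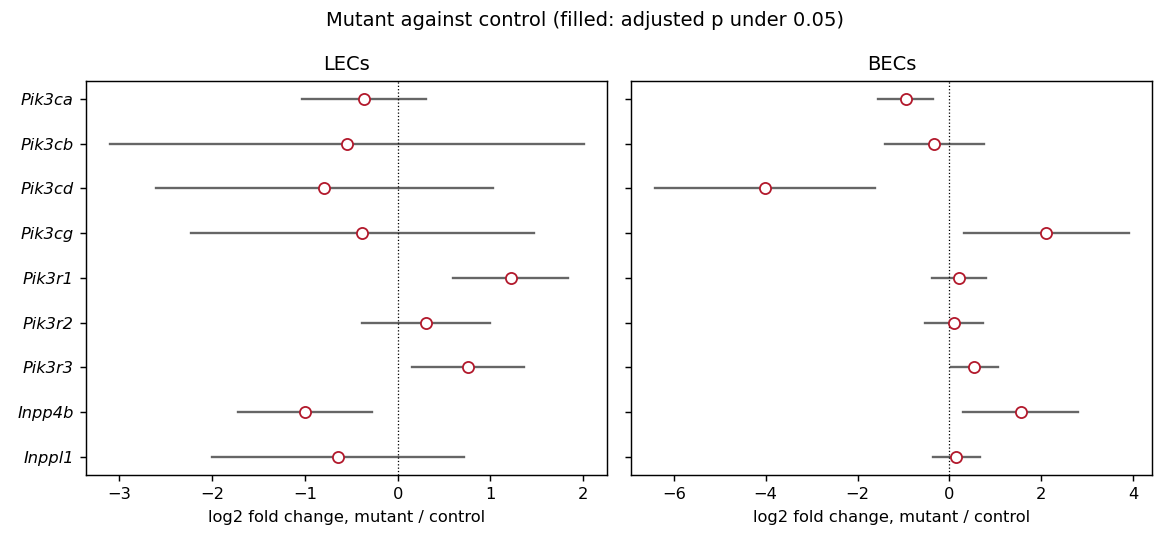
Log2 fold changes of the 9 genes, mutant over control, in LECs (left) and BECs (right) from edgeR, with 95% intervals as lines, where a filled point would mark an adjusted p under 0.05. No point is filled, and the intervals of *Pik3r1* (0.60 to 1.84) and *Inpp4b* (-1.73 to -0.28) in LECs lie on opposite sides of 0.

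Whether genotype differences were unlike in LECs and BECs was tested as an interaction, with each mouse as a block. *Inpp4b* had the smallest p, with a difference of -2.56 on the log2 scale (LEC effect minus BEC effect, SE 0.68, interval -4.14 to -0.98). *Pik3r1* followed with 1.02 (SE 0.32, interval 0.27 to 1.76). Adjusted p were 0.207 and 0.282, and none of the 9 passed in edgeR, as against 0.191% of 21933 genes. At an unadjusted p under 0.05 there were 2 of 9, beside 11.5% of all genes, and DESeq2 called 2 of 9, beside 5.66% of all genes, which were *Inpp4b* (adjusted p = 0.00505) and *Pik3r1* (0.0488). For *Pik3r1* the difference was 0.26 (adjusted p = 0.945) when cells passing both gates were left out. *Pik3ca* had a difference of 0.57 (SE 0.25; adjusted p = 0.446).

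LECs and BECs of the same mice were then compared, in a joint model with mouse as a block and CPM scaled over both cell types. In mutant mice 3 of 9 passed in edgeR, beside 19.2% of 21933 genes. *Pik3r3* was lower in LECs in 5 of 5 mutants, with 31.7, 33.3, 27.8, 38.5 and 25.5 CPM in LECs and 87.6, 100.1, 104.0, 127.6 and 143.4 CPM in BECs. Its log2 fold change of LECs over BECs was -1.83 (SE 0.16; adjusted p = 0.000168), which is 3.57-fold lower. *Inppl1* was also lower in LECs in 5 of 5 mice, at 9.18, 11.4, 13.5, 2.61 and 18.6 CPM against 52.5, 41.7, 41.2, 45.5 and 42.0 CPM (log2 fold change -2.22, SE 0.42; adjusted p = 0.00782). *Pik3r2* was higher in LECs in 5 of 5 mice, at 53.2, 39.7, 33.2, 44.7 and 59.1 CPM against 29.7, 25.1, 26.0, 21.6 and 17.4 CPM (log2 fold change 0.93, SE 0.24; adjusted p = 0.0291). The *Pik3r2* call was lost when mutant 1, 2, 4 or 5 was left out (adjusted p = 0.0553–0.0839). DESeq2 called 4 of 9, beside 6046 of 21933 genes, with *Pik3cb* added to these 3. *Pik3cb* was lower in LECs in 4 of 5 mice, on 10–528 LEC reads per mouse. Its log2 fold change was -2.04 (SE 0.81; adjusted p = 0.128 in edgeR, 0.00671 in DESeq2). Without mutant 4 it passed in edgeR (-2.70; adjusted p = 0.0465).

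In control mice 2 of 9 passed, beside 10.4% of all genes. *Pik3r3* was at 15.2 and 21.7 CPM in LECs and at 69.4 and 81.3 CPM in BECs (log2 fold change -2.05, SE 0.26; adjusted p = 0.00242). *Inpp4b* was at 22.1 and 23.9 CPM in LECs and at 2.32 and 3.57 CPM in BECs (log2 fold change 2.99, SE 0.60; adjusted p = 0.0178). The fold change of *Inpp4b* was 2.76–3.25 on the log2 scale when either control was left out, which no longer passed (adjusted p = 0.0967–0.145). The fit with 1 control assumes that it varies like the other mice. In mutant mice *Inpp4b* was at 11.6 ± 2.8 CPM in LECs and at 8.83 ± 3.21 CPM in BECs (log2 fold change 0.43, interval -0.41 to 1.28; adjusted p = 0.498). *Inppl1* gave -1.17 (SE 0.63; adjusted p = 0.317) and *Pik3r2* 0.73 (SE 0.38; adjusted p = 0.298) in controls. *Pik3ca* and *Pik3r1* were higher in LECs in 5 of 5 mutants and lower in 2 of 2 controls, with log2 fold changes of 0.31 and 0.40 in mutants and -0.25 and -0.62 in controls, none of which passed. The test of the difference between genotypes is the interaction given above.

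**Figure D2:**
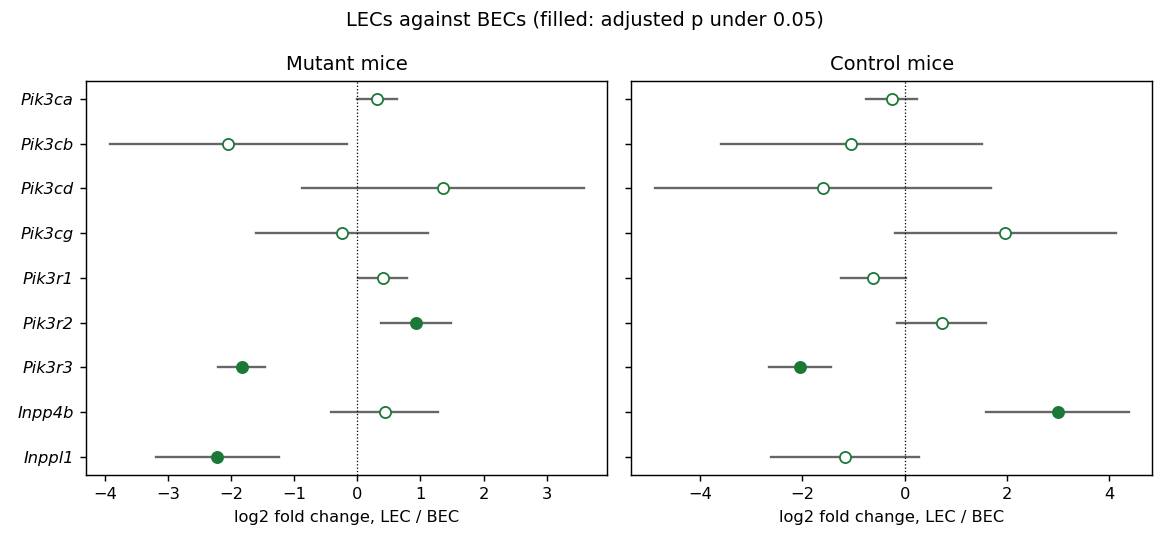
Log2 fold changes of the 9 genes, LEC over BEC, in mutant (left) and control mice (right) from the joint edgeR model, with 95% intervals as lines and filled points for an adjusted p under 0.05; the axes differ between panels. *Pik3r3* is filled on both sides (-1.83 and -2.05), *Pik3r2* and *Inppl1* are filled in the mutant panel and *Inpp4b* in the control panel.

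The share of cells with a read gives a view that single high cells cannot carry. Cells were thinned to 50000 reads each, which left none out, and the shares were compared by a two-sided exact permutation test over mice. With 5 against 2 mice the smallest p that this test can give is 0.0476, and the p of the 18 comparisons made are given without adjustment, so a p at this limit is no call. A *Pik3r1* read was found in 26.9 ± 4.8% of mutant LECs (19.3–31.9% over 5 mice) and in 16.4% and 13.7% of control LECs (exact p = 0.0476). Without thinning these shares were 30.5–58.2% and 26.3–43.2%, which overlapped. *Inpp4b* reads were found in 7.08–11.5% of mutant and 12.0% and 13.1% of control LECs (exact p = 0.0952). Shares did not overlap between groups for these 2 of 9 genes in LECs, beside 28.9% of all genes. *Pik3ca* reads were found in 14.4–22.9% of mutant and 19.1–25.7% of control LECs, with overlap (exact p = 0.381). Without thinning the *Pik3ca* shares were 23.0–41.3% and 44.0–48.1%, which did not overlap (exact p = 0.0952). After thinning to 100000 reads they were 16.2–28.3% and 29.2–33.5%, again without overlap (exact p = 0.0952).

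In BECs, shares of 4 of 9 genes did not overlap, beside 26.2% of all genes. *Pik3r3* reads were found in 43.5 ± 5.6% of mutant BECs (37.4–52.5%) and in 32.7% and 26.1% of control BECs (exact p = 0.0476). Without thinning the *Pik3r3* shares overlapped (52.2–76.6% and 44.6–59.1%, exact p = 0.429), and after thinning to 100000 reads the exact p was 0.143. *Pik3cd* reads were found in 0–1.72% of mutant and in 11.9% and 3.82% of control BECs (exact p = 0.0476). For *Inppl1* the shares were 18.8–27.3% and 14.5–16.6% (exact p = 0.0952), and for *Pik3r1* 18.8–32.2% and 15.7–18.5% (exact p = 0.19), and both overlapped without thinning. *Pik3ca* reads were found in 12.2–19.1% of mutant and 17.8–24.5% of control BECs, with overlap (exact p = 0.0952). *Inpp4b* shares in BECs, 4.89–6.06% and 4.40–5.73%, overlapped although its CPM did not.

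*Ptx3* encodes a secreted pattern recognition protein and marks a capillary LEC state that the study singled out, so mutant LECs were split into cells with more than 1 *Ptx3* read after the same thinning (67–197 per mouse) and the rest (101–202), with mouse as a block. *Pik3r2* was higher in *Ptx3*-positive LECs in 5 of 5 mice, at 70.8, 55.1, 46.0, 62.5 and 65.4 CPM against 39.7, 30.7, 22.2, 24.8 and 47.6 CPM. The log2 fold change was 0.90 (SE 0.16, interval 0.52 to 1.29; adjusted p = 0.0203), and this was the 1 call of 9, beside 6.7% of 15800 genes. Leaving out mutant 1, 2, 3 or 4 lost the call (adjusted p = 0.0595–0.0735).

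*Pik3r1* was higher in *Ptx3*-positive LECs in 5 of 5 mice as well, at 69.6, 115.1, 49.3, 64.8 and 48.7 CPM against 61.6, 30.1, 41.6, 56.1 and 33.8 CPM, without passing (log2 fold change 0.60, SE 0.27; adjusted p = 0.275). *Pik3cg* gave 1.62 (SE 0.68; adjusted p = 0.238 in edgeR, 0.0442 in DESeq2). *Pik3ca* was lower in 4 of 5 mice (log2 fold change -0.36, interval -1.17 to 0.44). The 2 controls held 15 and 49 *Ptx3*-positive LECs and were not tested. Their *Pik3r2* values went opposite ways, with 75.7 CPM in positive and 22.9 CPM in negative cells of control 1, and 41.8 and 52.2 CPM in control 2.

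**Figure D3:**
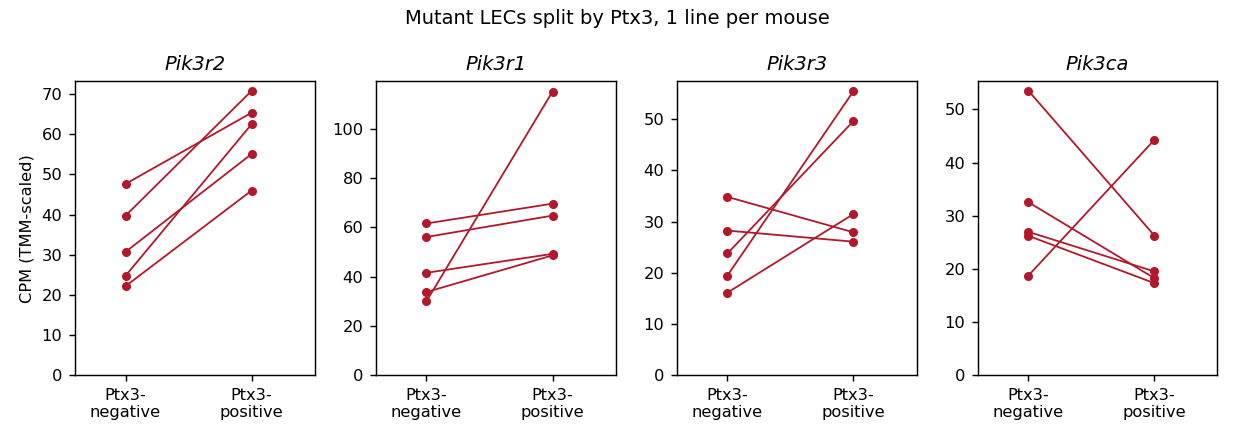
CPM (linear axis from 0) of *Pik3r2*, *Pik3r1*, *Pik3r3* and *Pik3ca* in *Ptx3*-negative and *Ptx3*-positive LECs, with 1 line for each of 5 mutant mice. All 5 lines end higher on the positive side for *Pik3r2* and *Pik3r1*, and 4 of 5 end lower for *Pik3ca*.

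Cycling cells were more frequent in mutants, at 13.2–34.2% of mutant and 1.64–2.29% of control LECs, counting cells with at least 3 of 7 cell-cycle genes detected after thinning. Within mutant LECs none of the 9 differed between cycling and other cells in edgeR, beside 6.99% of 15992 genes. There was also none at an unadjusted p under 0.05 (22% of all genes), and DESeq2 called 1 (18.6% of all genes), *Pik3cd* (adjusted p = 0.0246), which was at 0 CPM in cycling LECs of 3 mice. When at least 5 cell-cycle genes were required, edgeR called *Pik3cd* too (log2 fold change -7.91; adjusted p = 0.00339), beside 1946 of 15614 genes. *Pik3ca* was at 26.0, 9.60, 18.7, 18.1 and 24.9 CPM in cycling and 32.1, 26.2, 44.8, 26.9 and 22.0 CPM in other LECs, lower in 4 of 5 mice. The fitted difference was -0.68 on the log2 scale (SE 0.31; adjusted p = 0.254). *Pik3r1* was at 59.4 ± 21.5 CPM in cycling and 53.8 ± 11.5 CPM in other LECs (log2 fold change 0.09, interval -0.39 to 0.58).

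A list of 43 further genes of the pathway held class IB regulatory subunits, class II and III kinases, other phosphoinositide phosphatases, adaptors and phosphoinositide kinases. Of 40 tested in LECs of mutant against control mice, 11 had an unadjusted p under 0.05 (20.1% of all genes), and DESeq2 called 6 (12.5%). In edgeR 1 passed, beside 2.76% of all genes, and it was higher. This was *Mtm1*, encoding myotubularin, which removes a phosphate from singly phosphorylated inositol lipids. *Mtm1* was at 30.4, 31.2, 35.4, 34.8 and 32.1 CPM in mutant and at 14.3 and 13.4 CPM in control LECs (log2 fold change 1.24, SE 0.21; adjusted p = 0.0263). The call was lost without mutant 2, 3 or 4 or either control (adjusted p = 0.0567–0.0755) and with plate series as a block (0.141), where mutant 5 is again the 1 mutant set against the controls.

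In BECs none of 40 passed in edgeR, beside 2.12% of all genes. There were 3 at an unadjusted p under 0.05 (19.6% of all genes) and 2 in DESeq2 (11.6%). For the difference between cell types none of 41 passed in edgeR, beside 0.191% of all genes. An unadjusted p under 0.05 was found for 7 (11.5% of all genes), and DESeq2 called 4 (5.66%). Between LECs and BECs, 7 of 41 passed in mutant mice (3 higher and 4 lower in LECs), beside 19.2% of all genes. In control mice 5 of 41 passed (3 higher and 2 lower), beside 10.4% of all genes. In the *Ptx3* split 2 of 36 passed, both lower in positive cells, beside 6.7% of all genes. In the cycling split none of 37 passed in edgeR, beside 6.99% of all genes. There 9 had an unadjusted p under 0.05 (22% of all genes), and DESeq2 called 8 (18.6%). Median log2 fold changes of the list were -0.13 in LECs and -0.02 in BECs, beside -0.01 and 0.01 over all genes.

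The genes whose log2 CPM over the 14 sums (LECs and BECs of 7 mice) followed *Pik3ca* most closely were *9930111J21Rik2* (Pearson r = 0.86), *Trit1* (0.79) and *Esrp2* (0.77), out of 10617 compared. Within LECs alone (7 sums) r was 0.69, 0.70 and 0.82, and within BECs alone 0.94, 0.83 and 0.76. The sums share mice, plates and depth.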

How the data were processed

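Smart-Seq2 libraries of single endothelial cells from 5 mutant and 2 control mice were used (9 plates, 2 each for mutants 3 and 5). The third control was not analysed here. The deposited values are raw counts of reads by gene and cell, which the authors made by aligning reads with TopHat2 2.1.1 to GRCm38 plus the chicken *PIK3CA* sequence, removing duplicates with SAMtools 0.1.18 and counting with featureCounts. The annotation version and strand setting are not given in the sources used here. Of 46609 rows, 92 were ERCC spike-ins (0.447% of reads), which were left out, and 98.9% of the others had a symbol in GENCODE vM21. Each plate held 99738886–151102969 reads. No wells had identical counts and no well name was shared between plates.

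Cells were dropped under 200 genes, under 50000 reads or over 10% mitochondrial reads, and 117 of those kept passed neither the LEC nor the BEC rule. No doublet caller was run. Counts were summed per mouse and cell type, filtered with filterByExpr and tested with edgeR 4.0.16 in R 4.3.3 (TMM, quasi-likelihood F test, Benjamini-Hochberg adjustment over all genes tested, calls under 0.05). SEs are the log2 fold change divided by the root of F. LECs and BECs, *Ptx3* and cycling splits were compared with mouse as a block, which is the mouse itself. Mutant and control mice share only replicate numbers: their deviations correlated at -0.05 and 0.03 (LECs) and 0.03 and 0.11 (BECs), so no block was used there. Shares were compared with SciPy 1.17.1, and binomial intervals are Wilson at 95%; they cover counting error only, since reads without molecular barcodes are not independent molecules. Replicates are mice, 1 sum per mouse and cell type. Scripts were tested on simulated data.

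Named were the 9 genes and, of a list of 43 other pathway genes, those called in the LEC, BEC or difference comparisons. The genes, lists and tests were chosen with earlier results of these data known. Alternatives were DESeq2 1.42.0, its size factors used in edgeR, all genes with a read, leaving out each mouse, the replicate block added or removed, plate number series as a block, the higher plate series alone, first plates, a gate of 1000 CPM, cells with at least 100000 reads, thinned cells, non-cycling cells, cells passing both gates or carrying other markers left out, more than 3 *Ptx3* reads and at least 5 cell-cycle genes.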

Additional observations from a re-analysis of the deposited data

Results flagged for a closer look

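In groups of 5 mutant mice, 36 values were tested for a single mouse standing apart (Dixon's test at 95%), and 2 were found, about as many as chance gives at 1 in 20. In LECs, *Inpp4b* was at 6.77 CPM in mutant 5, below the 11.9–13.6 CPM of the other mutants. In BECs, mutant 1 had a *Pik3cb* read in 9.84% of cells, above the 5.17–6.06% of the others.

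*Inpp4b* is listed for its opposite directions, since every mutant lay below both controls in LECs and above both in BECs. The difference of these effects was -2.56 on the log2 scale (adjusted p = 0.207 in edgeR and 0.00505 in DESeq2, 5 mutant and 2 control mice). Plate number series as a block leaves mutant 5, which stood apart in LECs, as the 1 mutant set against the controls, and gave -3.99 (adjusted p = 0.116). The plain difference of mutant 5 from the controls was -3.53 on the log2(CPM + 1) scale. In BECs the control reads of *Inpp4b* were few and came mostly from 1 cell per mouse, and the shares of BECs with a read overlapped.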

How the results depend on the processing

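The depth limits the catalytic genes other than *Pik3ca* most, since several of their sums held under 100 reads. Of the single-gene values, 519 of 560 under other settings and 381 of 412 with 1 mouse left out kept their direction and side of the threshold. Most of these values were uncalled at the outset, so these counts say little about the calls. Leaving out 1 mutant lost the calls of *Pik3r2* and *Mtm1* in some fits. It kept those of *Pik3r3* and *Inppl1* in LECs against BECs of mutant mice.

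Counts of called genes depended on the tool and on blocks. DESeq2 called 2472 genes in LECs, 2238 in BECs, 1241 for the difference, 4317 for LECs against BECs in controls, 2568 for *Ptx3* and 2967 for cycling. Plate series as a block, which rests on mutant 5 against the controls, gave 178, 54 and 15 in LECs, BECs and the difference, and non-cycling cells gave 82 in LECs and 18 for the difference. For the difference, leaving out cells with both marker sums gave 22, leaving out cells with other markers 89, and a gate of 1000 CPM 125. At least 5 cell-cycle genes gave 1946. Shares not overlapping numbered 3 without thinning and 6 with it. The replicate block gave 3 calls in LECs and 0 in BECs (edgeR, with 2710 at an unadjusted p under 0.05), and the *Ptx3* split without its block gave 668. The numbers pair no mice by the labels. The causes of these shifts were not tested.

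With 1 mouse left out (a lone control being assumed to vary like the other mice), calls ranged over 153–546 in LECs (lowest without mutant 3), 159–586 in BECs (without mutant 3), 0–21 for the difference (0 without control 2 in edgeR, with 2858 at an unadjusted p under 0.05), 1145–2129 in control LECs against BECs (without control 1), 2970–4391 in mutant ones, 589–678 for *Ptx3* (without mutant 4) and 471–824 for cycling (without mutant 3), and 6–11 shares did not overlap (11 without control 2).

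Signs that turned were all of uncalled values. In LECs these were *Pik3cg* (0.82 with the replicate block and 0.050 without cells of both marker sums), *Pik3r2* (-0.38, likewise) and *Inppl1* (0.13 with plate series as a block). In BECs they were *Pik3cb* (0.041, replicate block), *Pik3r1* (-0.22, plate series; -0.017, 1000 CPM), *Pik3r2* (-0.34, plate series) and *Inppl1* (-0.044 without cells of other markers). For the difference they were, without cells of both marker sums, *Pik3ca* (-0.39), *Pik3cg* (0.032), *Pik3r2* (-0.70) and *Pik3r3* (-0.41), with plate series *Pik3r3* (-0.46) and *Inppl1* (0.016), and for *Pik3r2* also -0.13 (1000 CPM), -0.49 (other markers out) and -0.31 (thinned). For *Ptx3* they were *Inpp4b* (-0.19, more than 3 reads) and *Inppl1* (-0.13, no block), and for cycling *Pik3cb* (0.29, no block), *Pik3r1* (-0.12, at least 5 genes) and *Inppl1* (-0.11, thinned). Leaving out 1 mouse turned *Pik3cb* (-1.41 to 0.20) and *Pik3cg* (-1.10 to 1.22) in LECs, *Pik3cb* (-0.80 to 0.40), *Pik3r2* (-0.027 to 0.25) and *Inppl1* (-0.10 to 0.47) in BECs, *Pik3r2* for the difference (-0.33 to 0.70), *Pik3cg* in mutant LECs against BECs (-0.75 to 0.18), *Inpp4b* (-0.081 to 0.36) and *Inppl1* (-0.24 to 0.43) for *Ptx3*, and *Pik3cb* (-1.40 to 0.55), *Pik3r1* (-0.084 to 0.21) and *Pik3r2* (-0.57 to 0.082) for cycling.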

Other observations

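Both plates of mutants 3 and 5 were counted apart, as CPM before TMM scaling. In LECs of mutant 3, *Pik3ca* was at 26.0 and 57.8 CPM on the 2 plates, *Pik3r3* at 35.9 and 16.2 CPM, and *Inppl1* at 8.13 and 18.5 CPM. In BECs of mutant 5, *Inpp4b* was at 9.19 and 19.2 CPM, *Pik3r1* at 39.7 and 22.0 CPM, and *Pik3cd* at 4.11 and 0 CPM. In LECs of mutant 5, *Inpp4b* was at 6.44 and 7.02 CPM.

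In control LECs, *Inpp4b* was at 82.7 CPM in *Ptx3*-positive and 15.8 CPM in *Ptx3*-negative cells of control 1, and at 35.9 and 21.0 CPM in control 2. With 15 and 49 positive cells these values were not tested.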
